A study of Homo sapiens with 4 samples.

Results

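The genes described here are 34 genes of PPAR signalling, lipid droplets and fatty acid oxidation, chosen by their symbols among the 19215 genes of the deposited table. All 34 have a row there. They were measured by bulk RNA-seq in C28/I2, an immortalised human chondrocyte line grown in serum-containing medium. In one group the cells received 25 ng/mL of FABP4, a fatty acid-binding protein released by fat cells, for 48 h. In the other the cells received 0.5% DMSO, a solvent, for 48 h, and serve as the control. Each group has 2 libraries (n = 2 in every mean ± SD below), no genetic change separates the groups, and the labels are silent on whether the FABP4 cells were also given DMSO. Nothing in the labels states that the libraries are separate cultures, so each p-value reflects only the spread between these libraries. Both groups come from a single cell line.

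PPARs are nuclear receptors that fatty acids and their derivatives activate. They pair with an RXR receptor on DNA and raise the transcription of genes for lipid storage and burning, among them PLIN2, ANGPTL4, CPT1A and PDK4. Fatty acids taken up by a cell are joined to coenzyme A by ACSL enzymes, then either stored as triglyceride in droplets coated by perilipins or moved into mitochondria through the carnitine shuttle and shortened there by beta-oxidation. Chondrocytes live in tissue without blood vessels and depend largely on glycolysis, and in mice the loss of Pparg from cartilage is followed by osteoarthritis-like damage.

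Values are FPKM, fragments scaled to transcript length and to the mapped fragments of the library, so levels can be set side by side between genes. Depth, estimated from the steps between low FPKM values, was 11350000 to 13075000 fragments a library. At that depth 1 FPKM rests on 11.3 to 13.1 fragments per kilobase of transcript, counted after the estimated fragment length of 280 bases is taken off. Of 17 cartilage marker genes, 4 had a mean of at least 1 FPKM, among them SOX9 and ACAN, and COL2A1, the main cartilage collagen, was between 0 and 0.05 FPKM. Their summed level was 20.1 to 23.34 FPKM with FABP4 and 22.76 to 23.28 FPKM with DMSO. Of 12 adipocyte markers, which include PLIN1 and LIPE of the group, 3 had a mean of at least 1 FPKM; ADIPOQ, the adiponectin gene, was listed at 0 in all 4 libraries, and their sum was 4.6 to 5.9 FPKM with FABP4 and 5.39 to 6.18 FPKM with DMSO. The most abundant of them by its mean was FABP4 itself, the cells' own transcript and a PPARG target, which was lower with the protein added, at 1.03 and 0.56 FPKM against 2.1 and 1.93 FPKM. The FABP4 transcript thus lay near 1 FPKM, where few fragments are counted, and its fragments were not estimated. Its limma log2 fold change was -0.76 (SE 0.16, adjusted p = 0.0377), a call that was lost in 6 of 14 alternatives. Leaving out FABP4 replicate 2 gave an adjusted p of 0.173, leaving out DMSO replicate 1 gave 0.0866 and leaving out DMSO replicate 2 gave 0.0855, within a range of 0.000245 to 0.505 over the alternatives. FABP4 is in neither the 34 genes nor the wider lists described last, and was named after its values were seen. All 7 liver and muscle markers had a mean below 1 FPKM. Of 8 fibroblast markers 5 had a mean of at least 1 FPKM, and DCN, LUM and THY1 were below it. All 8 summed to 1212 and 1674 FPKM with FABP4 and 1542 and 1372 FPKM with DMSO, mostly from the collagen gene COL1A1. Of 8 blood and endothelium markers 1, the lysosomal gene CD68, had a mean of at least 1 FPKM. In such bulk RNA a change in the share of cells of one kind and a change of RNA per cell cannot be told apart.

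None of the 34 genes passed the threshold in cells given FABP4. PPARD, the most abundant PPAR gene, stood at 0.804 times the control level, and CEBPD, an adipogenic factor, at 1.30 times, while PPARG, PPARA and the shuttle gene CPT1A differed less. Of the 34, 26 had 2 or more libraries at 1 FPKM or above, and these were compared with limma on log2(FPKM + 1) in a fit of 12490 genes, and 0 of the 26 had a Benjamini-Hochberg adjusted p of at most 0.05 (lowest limma adjusted p = 0.252, CEBPD). Among all tested genes 74 did, or 0.592%, and at that share a count of 0 in 26 genes is near the background. The authors' deposited table, made with DESeq2, also has 0 of the 34 at a q of at most 0.05, against 0.655% of its 18019 genes with a q-value, and its lowest q for a gene of the group is 0.22 (PPARD). At an unadjusted DESeq2 p under 0.05 the same source has 4 of the 34 (PPARD, CEBPD, ACADVL and ACSL4), against 5.82% of its genes.

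At an unadjusted p under 0.05 in limma 3 of the 26 stood apart, CEBPD and ETFDH higher and PPARD lower. That is 11.5% of them, against 9.68% of all tested genes (5.68% higher and 4% lower). The FABP4 and DMSO libraries did not overlap in 11 of the 26 (8 higher, 3 lower), or 42.3%, against 36.9% of all tested genes (20.7% higher and 16.1% lower). The log2 fold changes ran from -0.30 (PPARD) to 0.37 (CEBPD), with a median of 0.069 for the 26 and 0.014 for all tested genes, and 19 of the 26 lay above 0 against 54% of all tested genes. With the FPKM rescaled to equal totals 14 of the 26 (53.8%) lay above 0, against 42.1% of all tested genes on that scale. The median size of the difference, whatever its sign, was 0.107 for the 26 and 0.0975 for all tested genes.

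**Figure D1:**
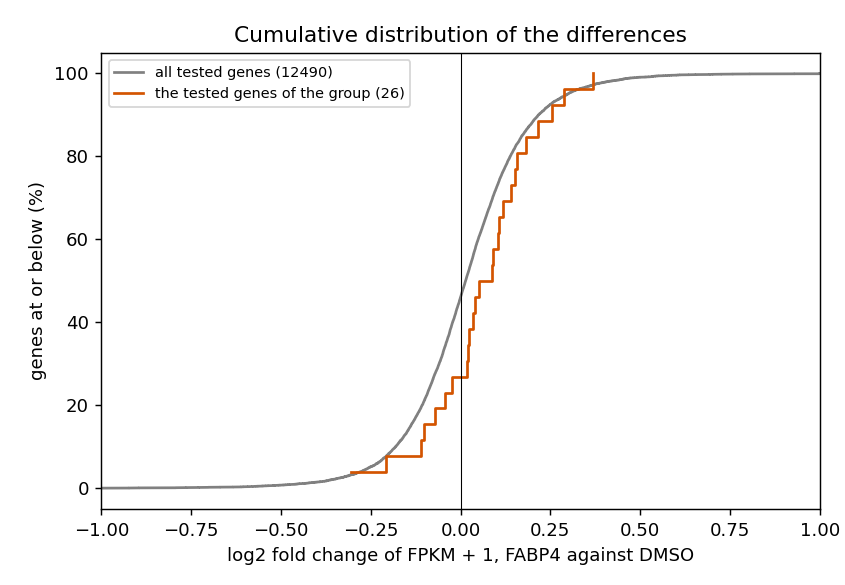
Cumulative share of genes (percent) against the log2 fold change of FPKM + 1, FABP4 against DMSO, for all 12490 tested genes (grey) and the 26 tested genes of the group (orange). The orange curve lies to the right of the grey one near 0, with medians of 0.069 and 0.014, and the orange steps run from -0.30 to 0.37.

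How far each tested gene moved is bounded only on the scale of FPKM + 1, and only by the spread between these libraries. The 95% intervals of limma, which are not adjusted for the number of genes, extended by 0.243 to 0.311 on either side of the log2 fold change. For 25 of the 26 genes the whole interval lay within a 1.5-fold change of FPKM + 1 in either direction. The exception was CEBPD, whose interval ran from 0.10 to 0.64. For low genes the same interval allows a larger change in FPKM. The log2 fold change of PLIN2, for example, was 0.21 in the main fit and 0.33 with a pseudocount of 0.1. The misses of the threshold do not show that levels were equal, and 8 genes below 1 FPKM could not be bounded in this way.

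**Figure D2:**
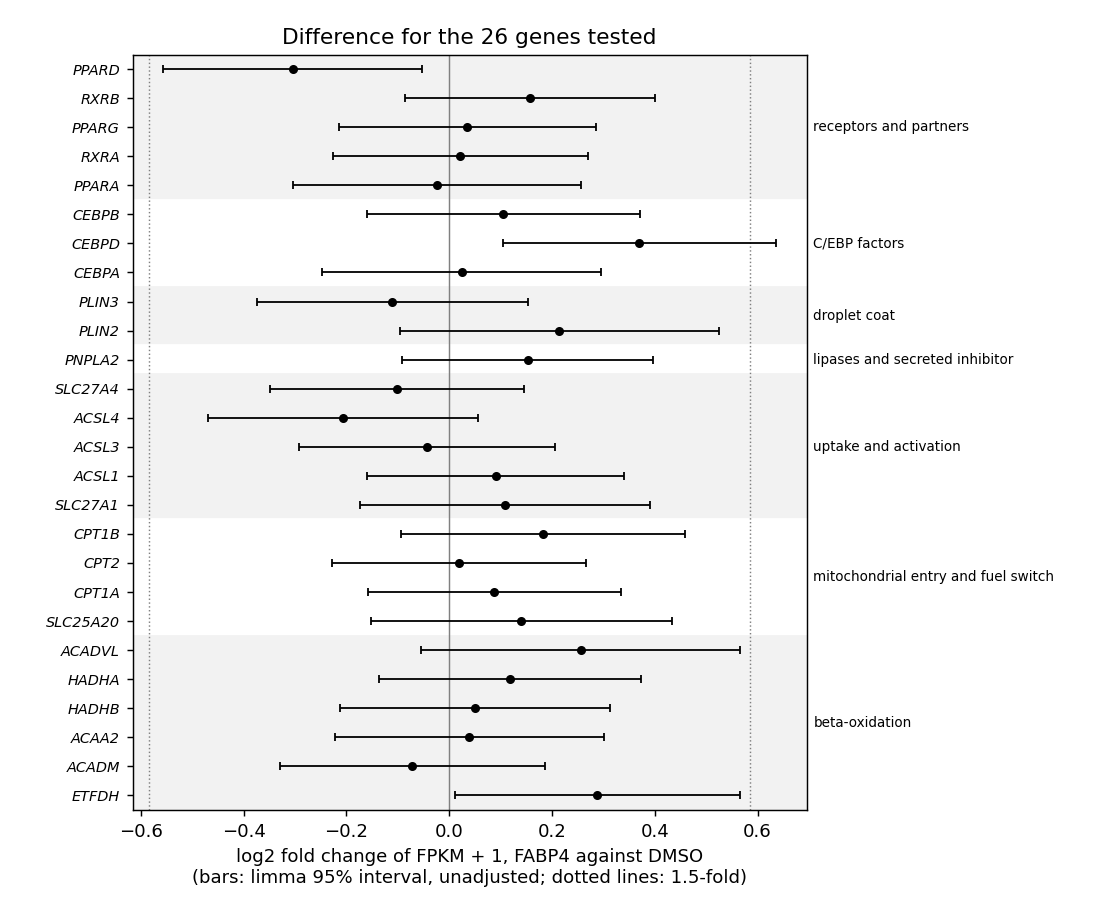
Log2 fold change of FPKM + 1 (horizontal axis), FABP4 against DMSO, with the unadjusted 95% interval of limma for each of the 26 tested genes, ordered by role and level. The intervals of CEBPD and ETFDH lie above 0 and that of PPARD lies below 0, and only the interval of CEBPD reaches past the dotted line at 1.5-fold.

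PPARD was the most abundant of the receptor genes, and the receptor with the lowest p. PPARD, which encodes the broadly expressed PPAR-delta, had 29.82 and 31.6 FPKM with FABP4 and 40.47 and 35.96 FPKM with DMSO. Both FABP4 libraries lay below both DMSO libraries, by means of 30.7 ± 1.26 against 38.2 ± 3.19 FPKM, or 0.804 times the control level. The log2 fold change was -0.30 (SE 0.12, interval -0.56 to -0.053, unadjusted p = 0.0206, limma adjusted p = 0.352). It kept its sign in all 14 alternative settings, but with the groups apart only a change of scaling could have reversed it. With all 4 libraries kept, the limma adjusted p was 0.0814 to 0.614 over these settings. That 0.0814 is from a fit that crossed the replicate numbers of the groups, picked once the data had been seen. The lowest value among the other settings with all 4 libraries was 0.219, from FPKM rescaled to equal totals. Omitting a single library moved the PPARD log2 fold change between -0.222 (DMSO replicate 1 omitted) and -0.388 (DMSO replicate 2 omitted). The authors' deposited table gives PPARD a log2 fold change of -0.31 with a DESeq2 p of 0.00325 and q of 0.22.

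The PPARD gene lies on the plus strand of chromosome 6, at 35342558 to 35428191 (GRCh38, GENCODE 29). Its RefSeq promoter window (GRCh38.p14, chr6:35342308-35342607, plus strand) is printed because PPARD is the receptor gene with the lowest p. The 50 transcribed bases are in capitals and 70.3% of the window is G or C.
PPARD: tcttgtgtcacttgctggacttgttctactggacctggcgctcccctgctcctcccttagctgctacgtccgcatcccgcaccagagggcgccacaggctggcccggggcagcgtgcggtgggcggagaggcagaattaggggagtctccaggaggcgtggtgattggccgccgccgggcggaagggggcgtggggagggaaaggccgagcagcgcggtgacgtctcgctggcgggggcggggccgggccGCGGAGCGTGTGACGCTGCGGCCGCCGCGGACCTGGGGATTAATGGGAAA
The window was searched for the PPAR and RXR element, given below, and holds no match. That says only that these letters are not in this window.

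The adipocyte regulator PPARG and PPARA, the receptor most active in liver, overlapped between the groups. PPARG had 13.08 and 12.96 FPKM with FABP4 and 11.94 and 13.46 FPKM with DMSO, so that both FABP4 values lay between the DMSO values (limma log2 fold change 0.036, SE 0.12, interval -0.21 to 0.28, adjusted p = 0.983). PPARA had 3.22 and 3.05 FPKM with FABP4 and 3 and 3.42 FPKM with DMSO, and the groups overlapped (limma log2 fold change -0.024, SE 0.13, interval -0.30 to 0.26, adjusted p = 0.988). In every library the order of the levels was PPARD, PPARG, PPARA, without overlap. PPARD made up 64.7% and 66.4% of the summed FPKM of these genes with FABP4 and 73% and 68.1% with DMSO. PPARG made up 28.4% and 27.2% against 21.5% and 25.5%.

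The RXR partners stood close to the PPARG level. RXRB had 15.74 and 15.7 FPKM with FABP4 and 14.41 and 13.58 FPKM with DMSO, all FABP4 values above all DMSO values (limma log2 fold change 0.16, adjusted p = 0.781). RXRA had means of 9.08 ± 0.269 and 8.93 ± 0.311 FPKM, with overlapping groups (limma log2 fold change 0.022, adjusted p = 0.988). Of the receptors and partners 5 of 5 were tested, 3 lay above 0 and 2 below.

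**Figure D3:**
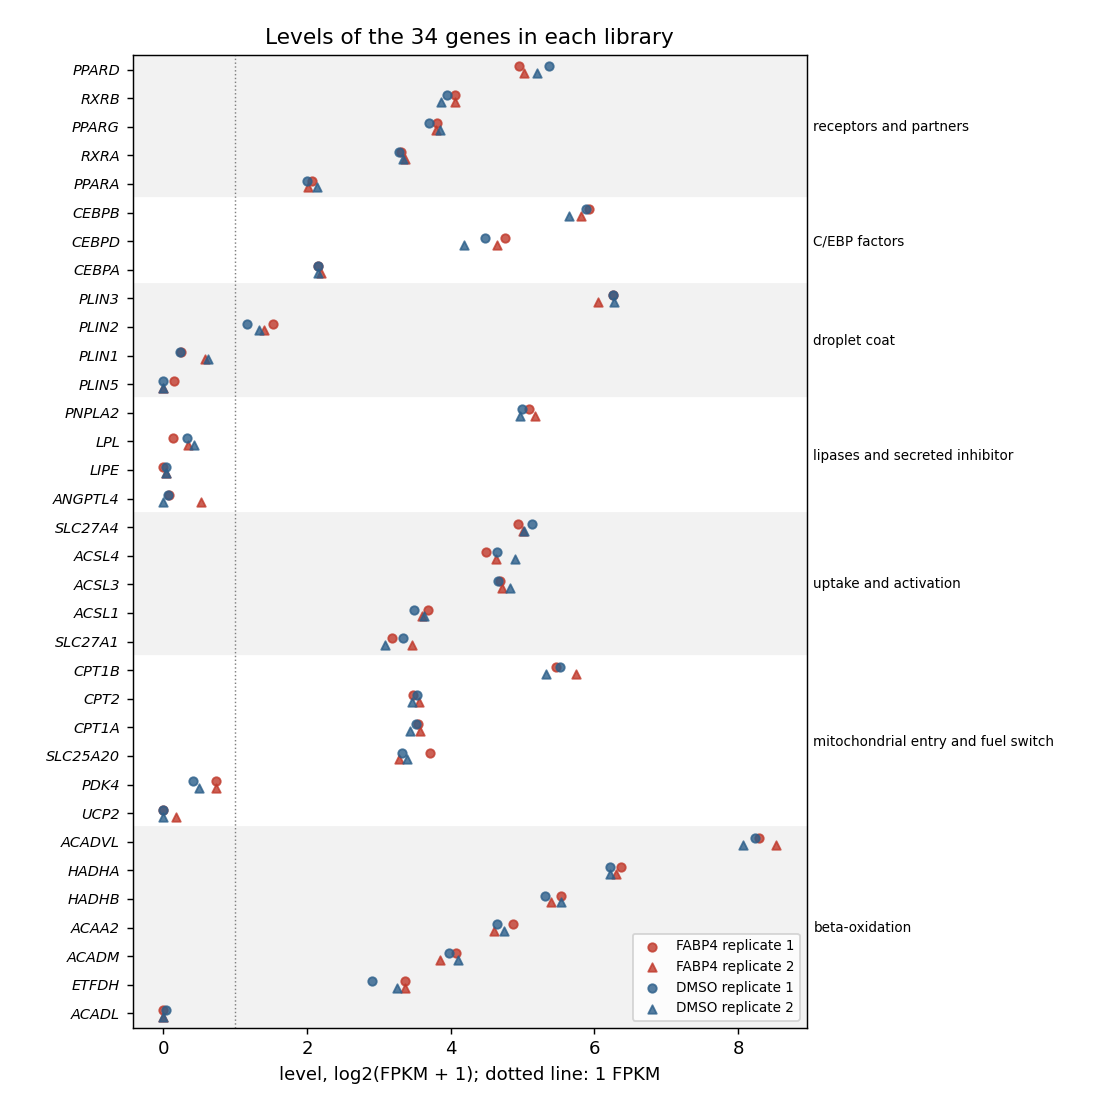
Level of each of the 34 genes, as log2(FPKM + 1), in each of the 4 libraries (red FABP4, blue DMSO; circles replicate 1, triangles replicate 2), by role. The 8 genes to the left of the dotted line at 1 FPKM in every library were not tested, and genes differ in level by far more than the red and blue points of any tested gene.

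Among the C/EBP factors, which act with PPARG in fat cell formation, CEBPD stood highest relative to control. CEBPD, an early, stress- and cytokine-induced member, had 26.14 and 24.03 FPKM with FABP4 and 21.29 and 17.25 FPKM with DMSO. Both FABP4 libraries lay above both DMSO libraries, with means of 25.1 ± 1.49 and 19.3 ± 2.86 FPKM, 1.30 times the control level. The log2 fold change was 0.37 (SE 0.13, unadjusted p = 0.00926, limma adjusted p = 0.252), and the authors' deposited table gives 0.40 with a DESeq2 p of 0.0174 and q of 0.555. The sign held in all 14 alternative settings, at log2 fold changes of 0.23 to 0.51. With the groups apart, only a change of scaling could have reversed it. The limma adjusted p values with all 4 libraries kept were 0.0323 to 0.606. The lowest of these came from a fit with the replicate numbers crossed between the groups, chosen after the data were seen, and it was the only setting in which CEBPD passed the threshold. Without DMSO replicate 2 its log2 fold change was 0.23, and without DMSO replicate 1 it was 0.51. CEBPB, the more abundant member, had 57.5 ± 3.04 against 53.5 ± 6.49 FPKM (limma log2 fold change 0.11, adjusted p = 0.918). CEBPA, the late adipocyte member, had 3.54 ± 0.0919 against 3.46 ± 0.0141 FPKM (limma log2 fold change 0.024, adjusted p = 0.988), so that CEBPA stood far below CEBPB and CEBPD in every library.

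By FPKM, perilipin RNA was almost entirely that of PLIN3. PLIN3, a perilipin found in most cells that moves from the cytosol to small droplets, had 75.8 and 65.31 FPKM with FABP4 and 75.48 and 76.63 FPKM with DMSO, where FABP4 replicate 2 was the lowest library (limma log2 fold change -0.11, adjusted p = 0.908). It accounted for 95.7% to 97.2% of the summed FPKM of PLIN1 to PLIN5 in the 4 libraries. PLIN2, the coat protein that follows the amount of stored lipid and a common readout of PPAR activity, was low, with 1.88 and 1.64 FPKM with FABP4 and 1.25 and 1.51 FPKM with DMSO. The groups did not overlap, at 1.76 ± 0.170 against 1.38 ± 0.184 FPKM, but the difference did not pass the threshold (limma log2 fold change 0.21, SE 0.15, interval -0.096 to 0.52, unadjusted p = 0.163, adjusted p = 0.75). These values rest on an estimated 39.1 and 31.5 fragments with FABP4 and 27.0 and 33.4 with DMSO, not scaled to depth. The authors' deposited table gives PLIN2 a log2 fold change of 0.093 with a DESeq2 p of 0.825. PLIN1, the fat cell perilipin, had 0.19 and 0.49 FPKM with FABP4 and 0.18 and 0.54 FPKM with DMSO. PLIN5, the perilipin of oxidative tissue, was listed at 0 in 3 libraries and at 0.11 FPKM in FABP4 replicate 1, an estimated 2.96 fragments on its longest GENCODE transcript.

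**Figure D4:**
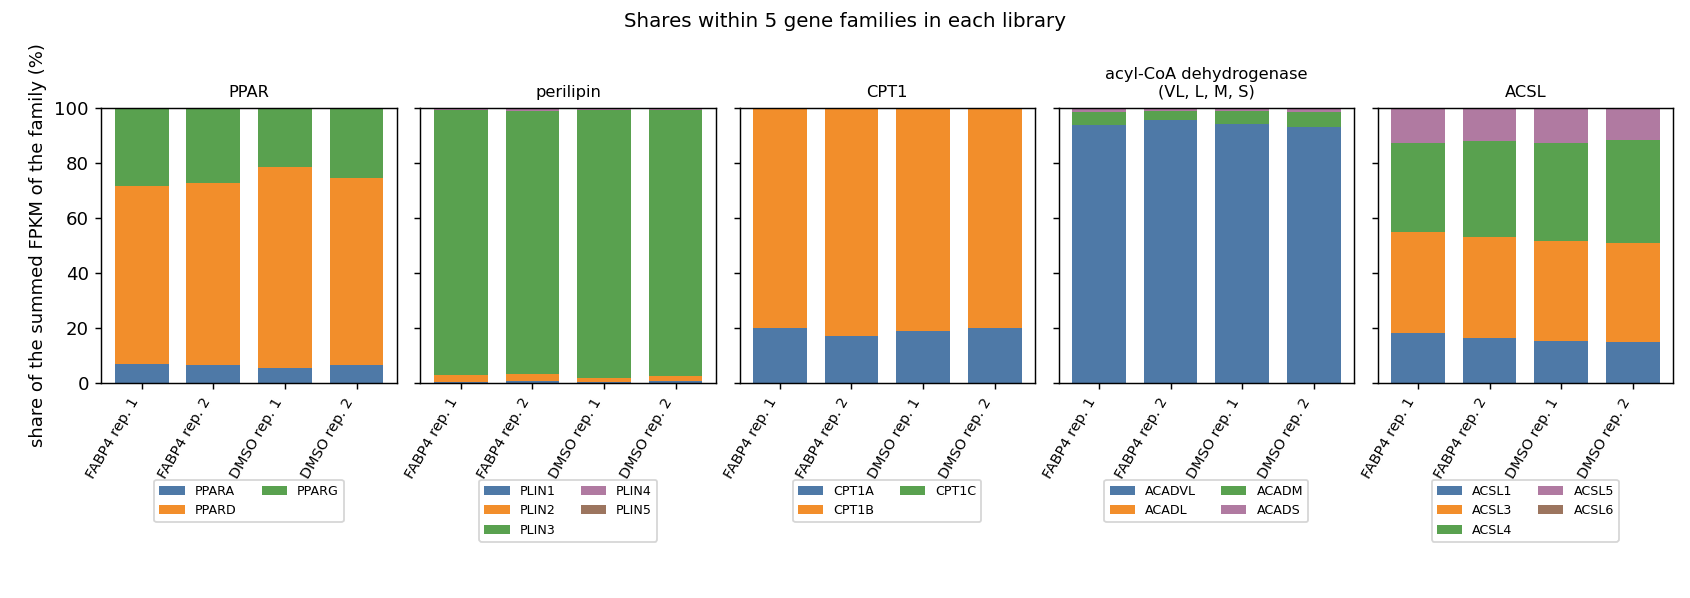
Share (percent) of each gene in the summed FPKM of 5 families, PPAR, perilipin, CPT1, acyl-CoA dehydrogenase and ACSL, in each of the 4 libraries. The same gene leads in all 4 libraries in the first 4 families, PPARD, PLIN3, CPT1B and ACADVL, while ACSL3 leads the ACSL genes in 3 libraries and ACSL4 in DMSO replicate 2.

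Of the 4 genes for lipases and their secreted inhibitor in the group, PNPLA2 was the only one expressed at a tested level. PNPLA2 encodes ATGL, which takes the first fatty acid off stored triglyceride. It had 33.01 and 35.13 FPKM with FABP4 and 30.72 and 30.36 FPKM with DMSO, without overlap, at means of 34.1 ± 1.5 and 30.5 ± 0.255 FPKM (limma log2 fold change 0.15, SE 0.12, adjusted p = 0.796). LIPE, the hormone-sensitive lipase of fat cells, had 0 to 0.03 FPKM, at most an estimated 1.39 fragments in a library. LPL, the lipase that works outside the cell, had 0.1 and 0.27 FPKM with FABP4 and 0.26 and 0.35 FPKM with DMSO. ANGPTL4, a secreted inhibitor of LPL and a PPAR target, had 0.06 and 0.44 FPKM with FABP4 and 0.05 and 0 FPKM with DMSO. FABP4 replicate 2 alone stood out there, with an estimated 7.99 fragments against 1.18 in FABP4 replicate 1 and 1.02 in DMSO replicate 1. The authors' deposited table gives ANGPTL4 a log2 fold change of 2.29 with a DESeq2 p of 0.143.

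Of the 5 genes for uptake and activation 2 lay above 0 and 3 below, and 3 overlapped between the groups. The fatty acid transporter gene SLC27A4 had 29.71 and 31.1 FPKM with FABP4 and 34.11 and 31.36 FPKM with DMSO (limma log2 fold change -0.10, adjusted p = 0.911), and SLC27A1 had 9.02 ± 1.36 against 8.29 ± 1.17 FPKM (limma log2 fold change 0.11, adjusted p = 0.924). Of the long-chain acyl-CoA synthetases ACSL4, which prefers polyunsaturated fatty acids such as arachidonate, had 21.53 and 23.7 FPKM with FABP4 and 23.93 and 28.75 FPKM with DMSO. All FABP4 values lay below all DMSO values, though FABP4 replicate 2 and DMSO replicate 1 nearly met (limma log2 fold change -0.21, unadjusted p = 0.114, adjusted p = 0.677). Without DMSO replicate 2 the log2 fold change of ACSL4 was -0.080, and without DMSO replicate 1 it was -0.34. The authors' deposited table gives ACSL4 a DESeq2 p of 0.0288 and a q of 0.698. ACSL3, an enzyme of the endoplasmic reticulum and nascent droplets, had 25.0 ± 0.431 against 25.8 ± 2.11 FPKM, and ACSL1, the form that serves oxidation and storage in fat and muscle, 11.5 ± 0.552 against 10.8 ± 0.771 FPKM. Their log2 fold changes were -0.043 and 0.091, and the adjusted p in limma was 0.979 and 0.93.

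The carnitine shuttle genes were all expressed, and none passed the threshold. CPT1A, the carnitine palmitoyltransferase of liver and most tissues, which sets the rate of entry and is a PPAR target, had 10.73 and 10.9 FPKM with FABP4 and 10.42 and 9.82 FPKM with DMSO. Its groups did not overlap, yet the gap was small beside its error (limma log2 fold change 0.088, SE 0.12, interval -0.16 to 0.33, adjusted p = 0.931). The authors' deposited table gives CPT1A the other sign, a log2 fold change of -0.0067 with a DESeq2 p of 0.958. CPT2, the inner-membrane partner, had 10.4 ± 0.431 against 10.3 ± 0.403 FPKM (limma log2 fold change 0.019, adjusted p = 0.989). SLC25A20, the carnitine and acylcarnitine carrier, had 12.11 and 8.71 FPKM with FABP4 and 8.97 and 9.51 FPKM with DMSO, where FABP4 replicate 1 was high and FABP4 replicate 2 the lowest of all (limma log2 fold change 0.14, adjusted p = 0.876). Leaving out FABP4 replicate 1 gave SLC25A20 a difference of -0.076 on the log2 scale, and leaving out FABP4 replicate 2 gave 0.36.

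CPT1B, the muscle form of the enzyme, was listed well above CPT1A. It had 43.13 and 52.88 FPKM with FABP4 and 45.02 and 39.15 FPKM with DMSO, 79.8% to 82.8% of the summed FPKM of CPT1A, CPT1B and CPT1C, and the groups overlapped (limma log2 fold change 0.18, SE 0.13, adjusted p = 0.769). Without FABP4 replicate 2 the log2 fold change of CPT1B was 0.038, and without FABP4 replicate 1 it was 0.33 (unadjusted p = 0.0421). Muscle markers were near 0 in the same libraries, with CKM, the muscle creatine kinase gene, at 0 to 0.06 FPKM. CPT1B lies on the minus strand of chromosome 22, at 50568861 to 50578465 (GRCh38, GENCODE 29), directly downstream of CHKB, a choline kinase gene at 50578949 to 50601455 on the same strand. A readthrough gene, CHKB-CPT1B, spans both, and 93.3% of 50-base windows along the longest CPT1B transcript also occur in it. The readthrough has no row in the table used here. CHKB had 31.24 and 33.23 FPKM with FABP4 and 29.17 FPKM in both DMSO libraries. The level of CPT1B is therefore uncertain, since reads of the readthrough and of CPT1B cannot be told apart over most of its length.

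The fuel switch genes PDK4 and UCP2 were below the filter. PDK4 encodes a kinase that turns pyruvate dehydrogenase off when fatty acids are burned, and it is one of the most used PPAR targets. It had 0.66 FPKM in both FABP4 libraries and 0.33 and 0.41 FPKM with DMSO, an estimated 26.8 and 24.7 fragments against 13.9 and 17.7. The groups did not overlap, at 1.78 times the control level, but PDK4 was below the filter and was not tested in the main fit. In the fit without the filter its limma adjusted p was 0.417, the lowest of the 34 genes there. The authors' deposited table gives it a log2 fold change of 0.63 with a DESeq2 p of 0.193. The other kinases of the family were higher, and PDK4 was 1.31% to 2.37% of the summed FPKM of PDK1 to PDK4. UCP2, a mitochondrial carrier linked to fatty acid use, was listed at 0 in 3 libraries and at 0.13 FPKM in FABP4 replicate 2.

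The gene of the group with the highest level was ACADVL, a gene of beta-oxidation. It encodes the dehydrogenase of very long acyl chains that opens each cycle. It had 312.68 and 368.35 FPKM with FABP4 and 300.73 and 268.27 FPKM with DMSO, more than 98.5% of the genes of the table in the DMSO mean. The groups did not overlap, at 341 ± 39.4 against 285 ± 23.0 FPKM, 1.2 times the control level (limma log2 fold change 0.26, SE 0.15, interval -0.054 to 0.57, unadjusted p = 0.0995, adjusted p = 0.649). Without FABP4 replicate 2 the log2 fold change of ACADVL was 0.14, and without FABP4 replicate 1 it was 0.37. The authors' deposited table gives ACADVL a log2 fold change of 0.23 with a DESeq2 p of 0.0286 and q of 0.697. ACADVL held 92.8% to 95.4% of the summed FPKM of ACADVL, ACADL, ACADM and ACADS. ACADM, the medium-chain enzyme, had 14.6 ± 1.66 against 15.4 ± 0.976 FPKM (limma log2 fold change -0.072, adjusted p = 0.95). ACADL, the long-chain enzyme, was listed at 0 in 3 libraries and at 0.03 FPKM, an estimated 0.866 fragments, in DMSO replicate 1.

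Of the 6 tested beta-oxidation genes of the group, ETFDH had the highest log2 fold change. It encodes the membrane oxidoreductase that passes electrons of the acyl-CoA dehydrogenases to ubiquinone. It had 9.3 and 9.35 FPKM with FABP4 and 6.5 and 8.53 FPKM with DMSO, and both FABP4 values lay above both DMSO values, with DMSO replicate 1 well below the rest. The means were 9.33 ± 0.0354 and 7.52 ± 1.44 FPKM, 1.24 times the control level (limma log2 fold change 0.29, SE 0.13, interval 0.011 to 0.57, unadjusted p = 0.0424, adjusted p = 0.486). Without DMSO replicate 1 the log2 fold change of ETFDH was 0.12, and without DMSO replicate 2 it was 0.46. The authors' deposited table gives ETFDH a DESeq2 p of 0.204.

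**Figure D5:**
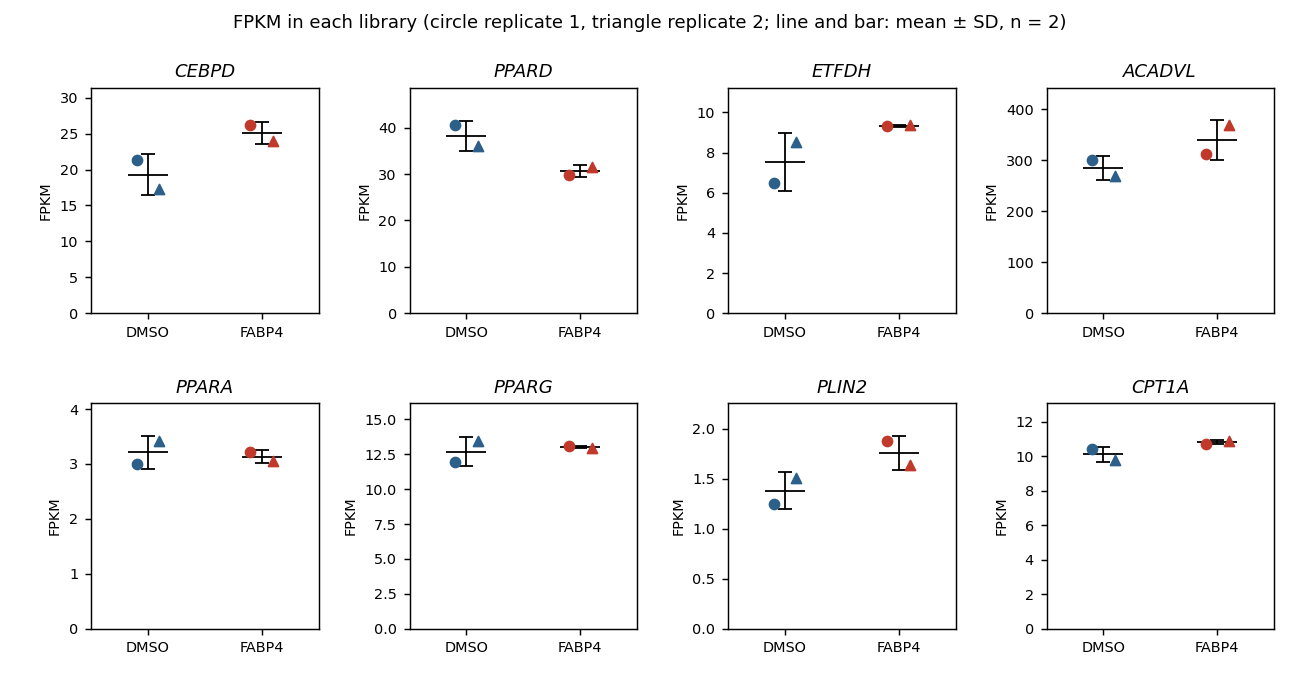
FPKM of 8 genes in each library (circles replicate 1, triangles replicate 2; line and bar are mean ± SD, n = 2; each axis starts at 0). CEBPD, ETFDH and ACADVL stood higher and PPARD lower in both FABP4 libraries than in both DMSO libraries, while the points of PPARA and PPARG overlap.

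HADHA and HADHB, the subunits of the trifunctional protein that carries out the last steps for long chains, did not pass the threshold. HADHA had 81.77 and 77.87 FPKM with FABP4 and 73.34 and 73.53 FPKM with DMSO, without overlap (limma log2 fold change 0.12, adjusted p = 0.885). HADHB had 45.61 and 41.1 FPKM with FABP4 and 38.58 and 45.23 FPKM with DMSO, with overlap (limma log2 fold change 0.050, adjusted p = 0.97). The pair is transcribed away from each other from one stretch of chromosome 2, with 306 bases between the first transcribed bases of the RefSeq transcripts, at 26244632 for HADHA on the minus strand and 26244939 for HADHB on the plus strand. The 194 bases shared by both promoter windows (GRCh38.p14, chr2:26244689-26244882, printed on the plus strand) are shown because they lie before both subunit genes, and 68.6% of them are G or C. No part is in capitals, since no searched motif occurs in them.
HADHA and HADHB: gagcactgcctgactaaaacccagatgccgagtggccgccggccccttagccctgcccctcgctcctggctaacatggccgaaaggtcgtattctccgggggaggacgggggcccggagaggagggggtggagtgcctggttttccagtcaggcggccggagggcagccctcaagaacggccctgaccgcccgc
HADHA stood at a higher FPKM than HADHB in every library. ACAA2, the mitochondrial thiolase, had 28.31 and 23.33 FPKM with FABP4 and 24.14 and 25.86 FPKM with DMSO (limma log2 fold change 0.039, adjusted p = 0.981). Of the 7 beta-oxidation genes 6 were tested, with 5 values above 0, 1 below and 0.084 as the median on the log2 scale. The number above 0 was 4 of 6 with the FPKM rescaled to equal totals, where 42.1% of all tested genes lay above 0, and 3 of 6 when FABP4 replicate 1 or DMSO replicate 1 was left out.

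The promoter windows of the genes, 250 bases before to 50 after the RefSeq start, hold few PPAR elements. PPAR and RXR pairs bind the half-site AGGTCA written again after 1 base, and this element was searched on both strands with at most 2 mismatches in its 12 fixed letters. Of the 34 genes 30 have windows in the table of RefSeq promoters, 46 windows in all, and 2 of these hold a match, 4.35% against 2.97% of all 35116 windows of that length. A match without mismatch was in 0 of the 46 and in 0.0228% of all windows. The C/EBP palindrome TTGCGCAA was in 0 of the 46 and in 0.151% of all windows. The 2 matches, of ACAA2 and ACSL1, are shown with 20 bases on either side, capitals marking the letters that equal the element. That of ACAA2 (GRCh38.p14, chr18:49813597-49813609) begins 76 bases before the start, on the strand of the gene. That of ACSL1 (chr4:184805655-184805667) lies in the window of one of its starts, on the strand opposite to the gene.
ACAA2: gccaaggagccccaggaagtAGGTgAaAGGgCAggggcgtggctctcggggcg
ACSL1: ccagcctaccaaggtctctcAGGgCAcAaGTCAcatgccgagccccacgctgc
Neither gene separated between the groups: ACSL1 had 11.92 and 11.14 FPKM with FABP4 and 10.23 and 11.32 FPKM with DMSO. A match describes letters and not a bound site.

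Further genes of the same pathways did not pass the threshold either. Of 124 such genes in 6 lists, 122 are in the table and 94 were tested, and 0 had an adjusted p of at most 0.05 in limma, against 0.592% of all tested genes, while 5 higher and 5 lower had an unadjusted p under 0.05, against 5.68% higher and 4% lower of all tested genes, a share near the background. Their median log2 fold change was 0.050, with 57 above 0 and 37 below. Among PPAR partners and coregulators (16 tested, 8 above 0, median -0.0019) the smallest p values were those of PPRC1, a coactivator of the PGC-1 family, at 16.2 ± 1.58 against 20.5 ± 1.24 FPKM (limma log2 fold change -0.32, adjusted p = 0.324), and of NR1H3, the oxysterol receptor LXR-alpha, at 3.97 ± 0.304 against 2.99 ± 0.559 FPKM (limma log2 fold change 0.32, adjusted p = 0.452). Among 10 tested PPAR targets outside the group 8 lay above 0 (median 0.083), with TXNIP, a regulator of glucose uptake, at 3.08 ± 0.290 against 2.44 ± 0.573 FPKM and EHHADH, a peroxisomal oxidation enzyme, at 2.47 ± 0.156 against 1.95 ± 0.382 FPKM (limma adjusted p = 0.656 and 0.679).

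Genes of droplets and triglyceride turnover lay on both sides of 0, 9 of 19 above 0 with a median of -0.0090. SOAT1, which esterifies cholesterol for storage in droplets, had 15.83 and 15.31 FPKM with FABP4 and 18.1 and 24.7 FPKM with DMSO, with DMSO replicate 2 far above the rest (limma log2 fold change -0.42, SE 0.14, unadjusted p = 0.00675, adjusted p = 0.224). Without DMSO replicate 1 the adjusted p was 0.0169 at a log2 fold change of -0.63, and without DMSO replicate 2 it was 0.726 at -0.21. MGLL, the lipase of the last triglyceride step, had 28.19 and 25.36 FPKM with FABP4 and 34.42 and 32.96 FPKM with DMSO (limma log2 fold change -0.32, adjusted p = 0.3). Among uptake genes 3 of 10 lay above 0 (median -0.054), but 6 of 10 without FABP4 replicate 2 (median 0.020), 5 of 10 without DMSO replicate 2 (median 0.0033) and 2 of 10 without FABP4 replicate 1 (median -0.16). Of these genes CAV1, the caveolin that takes part in fatty acid uptake, had 254 ± 24.1 against 321 ± 41.8 FPKM (limma log2 fold change -0.33, adjusted p = 0.461), followed by SLC27A5, a bile acid and fatty acid CoA ligase, at 1.53 ± 0.594 against 2.02 ± 0.566 FPKM (limma adjusted p = 0.737).

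Oxidation genes outside the group lay above 0 in the majority, where 54% of all tested genes did. Of 27 mitochondrial ones 19 did, with a median of 0.051. Over the alternative settings 15 to 20 did, and the median ranged from 0.0067 with equal totals to 0.13 without FABP4 replicate 2. The smallest p values there were those of ACOT13, a thioesterase, at 10.8 ± 0.849 against 8.34 ± 0.0636 FPKM, and of ACAD10, an acyl-CoA dehydrogenase relative, at 12.1 ± 0.622 against 9.43 ± 0.290 FPKM (log2 fold changes 0.33 and 0.33, limma adjusted p = 0.286 and 0.29). Of 18 peroxisomal ones 14 did, with a median of 0.14. Over the alternative settings 13 to 16 did, and the median ranged from 0.098 to 0.153. With equal totals 17 of the 27 and 13 of the 18 lay above 0, against 42.1% of all tested genes. The smallest p values among the 18 were those of PHYH, which starts the breakdown of branched chains, at 24.6 ± 3.59 against 19.2 ± 1.56 FPKM and of ACAA1, the peroxisomal thiolase, at 44.5 ± 1.14 against 37.7 ± 0.735 FPKM (limma adjusted p = 0.333 and 0.548). No gene of these lists passed the threshold, and no test of a list as a whole was made.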

How the data were processed

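RNA-seq of C28/I2 cells was deposited as a table of FPKM per gene in 4 libraries, 2 given FABP4 and 2 given DMSO, with the authors' own comparison. Per the submitters' processing notes, the authors used Bowtie2 2.2.5, RSEM 1.2.12, DESeq2 1.4.5 and GRCh38.p13, with no roles given. The authors deposited FPKM values, which carry no counts, so depth was estimated from the steps between low values and gives counting limits only approximately. Per the file headers, the authors' log2 fold changes, p-values and q-values come from DESeq2. Replicate columns were matched to libraries by name.

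Genes listed at 1 FPKM or above in 2 or more libraries were compared on log2(FPKM + 1), which understates changes of low genes, with limma 3.58.1 in R 4.3.3. Only the 2 groups entered the fit, with no covariate, and p-values were adjusted over all 12490 genes by the Benjamini-Hochberg method. The fit was also run on simulated data with independent noise and changes larger than those of the tested genes of the group. That run does not show how readily differences of the sizes seen in the group would be called. Each value with an SD is a mean over 2 libraries. Alternatives covered the scaling, the filter, pseudocounts of 0.1 and 0.5, robust moderation, a replicate block and leaving out each library.

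All 34 genes are named. Full values are given for genes with an unadjusted p under 0.05, the 4 with the largest change, the PPAR genes, PLIN2, ANGPTL4, CPT1A and PDK4. In each wider list the 2 genes with the smallest p values are named, with levels mostly as mean ± SD only. Other genes described at length, such as CPT1B, HADHA, HADHB and ACSL4, were chosen after their values were seen. The genes, lists and tests were chosen with earlier results of these data known. Coordinates are those of GENCODE 29 (GRCh38), and promoter windows are those of RefSeq (GRCh38.p14). CEBPD, ETFDH, LPL and CPT1B are without a window.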

Additional observations from a re-analysis of the deposited data

How the results depend on the processing

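The count of the 34 genes past the threshold was 0 in the main comparison and in each alternative but 1, and 2 to 4 had an unadjusted p under 0.05. Of the 26 tested genes 14 kept their direction in all 14 alternatives and 12 changed it in at least 1. For genes whose groups did not overlap, only a change of scaling could have reversed the direction. The median log2 fold change of the 26 was 0.069, and it was 0.025 with FPKM rescaled to equal totals (14 above 0, 12 below; over all tested genes the median went from 0.014 to -0.027 and the share above 0 from 54% to 42.1%), 0.052 with median-of-ratios scaling and 0.041 to 0.069 when each library was left out in turn.

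Over all tested genes 74 passed the threshold. The number was 178 with equal totals (63 higher, 115 lower), 10 with quantile normalization, 0 without the filter, 164 with robust moderation and 59 to 153 when each library was left out. Without the filter, 0 of the 34 genes were called as well, and the unadjusted limma p was 0.0714 for CEBPD and 0.155 for ETFDH. With 1 library left in a group, it was assumed to vary like the other group. For the wider lists the count of 0 became 0 to 1 when each library was left out, the 1 being SOAT1 without DMSO replicate 1.

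A fit with the replicate number as a block called 47 genes and 0 of the 34, with 2 at an unadjusted p under 0.05. Same-numbered libraries deviated with r = -0.119, and a block with the numbers crossed, chosen after the data were seen, called 418 genes, 1 of the 34 and 1 of the wider lists. The labels do not say that the numbers mark shared cultures, and the cause of these differences was not tested. At this depth genes below 1 FPKM rest on few fragments.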
